A study of Mus musculus with 2 samples.

Results

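The cytosolic ribosomal protein genes were the 81 of 25810 listed genes whose symbol begins with Rpl or Rps and continues with a P protein number, with the letter a, or with a plain number that may end in a, l or x. The rule used symbols only and no measured value. It took 49 proteins of the large (60S) subunit and 32 of the small (40S) subunit, and it left out 16 listed symbols of similar form, which were ribosomal protein S6 kinases, a binding protein, a pseudogene, Rpl22l1, Rpl7l1, Rpl36al and Rps4y2. Poly(A) RNA was sequenced from mammary epithelial cells (MECs) of the inguinal glands on lactation day 3 in 2 libraries, 1 from WT mice and 1 from Igfbp7-/- mice, which lack Igfbp7 in every cell because exon 1 was deleted in the germline. In both genotypes cells carrying CD45 or Ter119, and CD31 in the methods of the study or CD35 in the sample labels, had been removed with magnetic beads. The labels gave C57BL/6 as the background of both libraries, while the methods of the study named CD1. Neither source gave the age of the mice or how many animals each library pooled. With 1 library per genotype no difference could be tested against replicates, so every ratio compares 2 libraries.

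The ribosome joins a small subunit, which reads the mRNA, to a large subunit, which forms the peptide bond. Each subunit holds most of its proteins in single copy, bound to ribosomal RNA. The mRNAs of these proteins begin with a run of pyrimidines, the terminal oligopyrimidine (TOP) tract, through which mTORC1 and its target Larp1 set how well they are translated. A lactating MEC exports large amounts of a few milk proteins and depends on this machinery. Mammalian genomes also carry many processed copies of ribosomal protein mRNAs, which can share sequencing reads with the genes they came from.

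Levels were read as deposited read counts, as counts scaled to the mapped reads of each library (RPM), and, between genes, as RPM per kilobase of gene length (RPKM). The 81 genes together held 203058 reads in WT and 201442 in Igfbp7-/-, which was 0.592% (95% Wilson interval 0.589 to 0.594) and 0.575% (0.573 to 0.578) of the mapped reads. These intervals cover counting error only. They are too narrow even for that, because they take the mates of a read pair as independent reads. Of the reads on listed genes alone they held 0.718% in WT and 0.796% in Igfbp7-/-, so that the direction of this small difference turned with the denominator. In bulk RNA of this kind, fewer cells of a type and less RNA per cell cannot be told apart.

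Single ribosomal protein genes did not have equal RPKM, although their products are mostly needed in equal number. Rpl10a, a protein of the L1 stalk beside the exit site for transfer RNA, had the highest RPKM, 588.3 in WT and 527.3 in Igfbp7-/-. Rpl12, at the base of the P stalk, had 425.6 and 260.0 RPKM. Rpl4, which lines the tunnel for the nascent chain, had 318.0 RPKM in WT and 339.4 in Igfbp7-/-. Rpl10, which joins the large subunit late in its assembly, had 306.7 and 299.8 RPKM, and Rplp0, which carries the P stalk, had 301.1 and 231.8. In each library 21 genes stood at 100 RPKM or more, 42 between 10 and 100, and 17 below 10, and Rpl5 had no deposited RPKM. WT RPKM spanned 389-fold over the genes that reached a minimum of 1 RPM in one or both libraries. The lowest of them was Rpl34 at 1.51 RPKM, and a row titled as its pseudogene held 93.7% of their summed WT reads. The span is therefore one of the genes' own rows, and the part of shared reads in it was not tested.

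**Figure D1:**
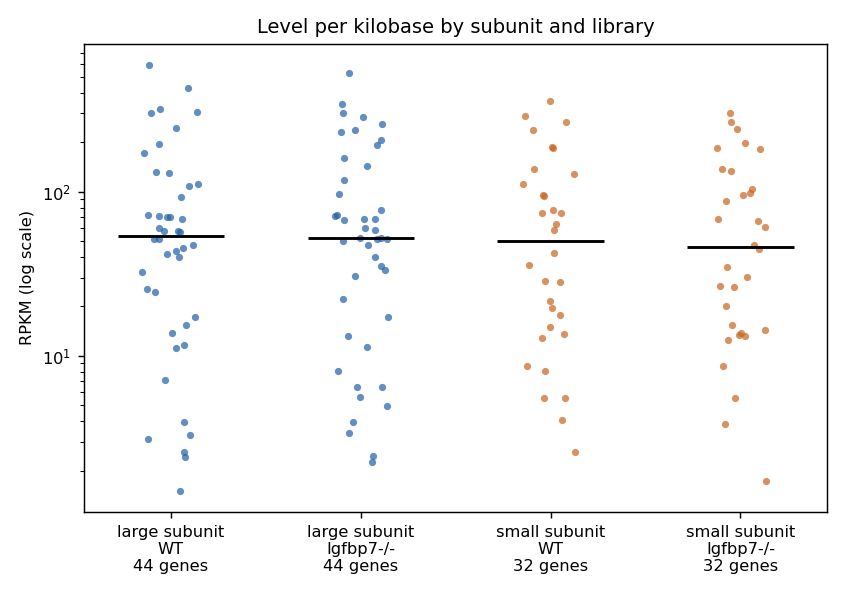
RPKM (log scale) of each ribosomal protein gene that reached 1 RPM in at least one library, split by subunit and library, where each point is 1 gene and the bar is the median of the genes. Both subunits spread over more than a factor of 100 in either library, with medians between 45.9 and 54.0 RPKM.

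The order of the genes was nearly the same in both libraries, with a Spearman correlation of 0.957 between WT and Igfbp7-/- RPM across 77 genes, given as a description because all points share the same libraries and gene lengths. Of the 81 genes, 77 reached 1 RPM in at least one library, 75 reached it in both, and 22 reached 100 RPM in at least one. The 4 that stayed below were Rpl39, Rpl39l, Rpl3l and Rpl10l.

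**Figure D2:**
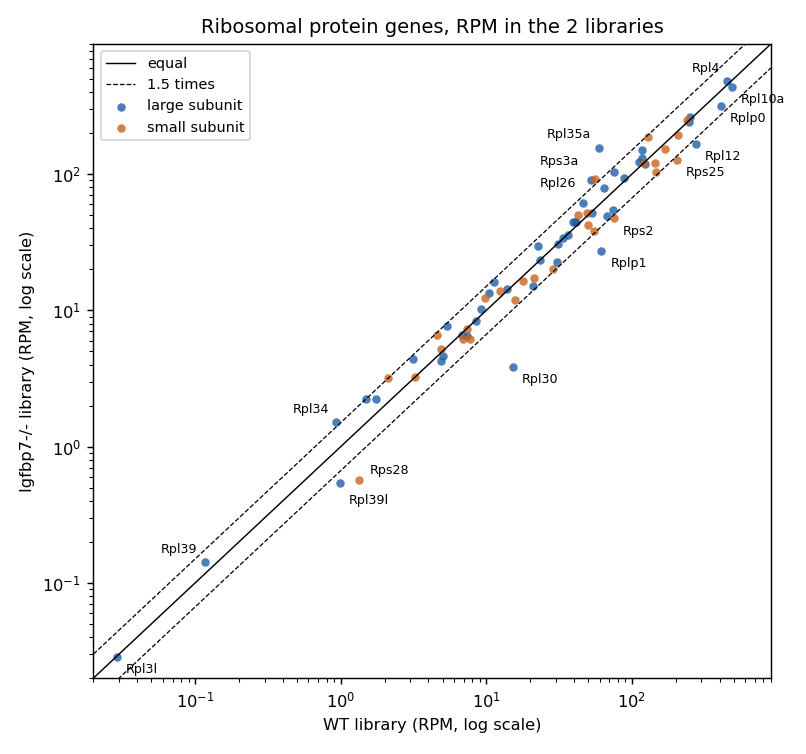
RPM of 76 ribosomal protein genes in the WT library (x, log scale) against the Igfbp7-/- library (y, log scale), 1 point per gene, coloured by subunit, with lines at equal level and at 1.5 times. Most points follow the line of equal level, Rpl35a lies above it and Rpl30 far below, and Rpl10l, with 0 reads in both libraries, cannot be drawn on log axes.

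The pyrimidine-rich starts known for these mRNAs could be seen in the RefSeq start windows (GRCm38.p6). In 30 of 72 windows of 60 matched genes (41.7%), a run of at least 8 C or T bases on the coding strand lay within the 20 bases on either side of the annotated start, against 16.05% of all 32851 windows. The hexamer CTTTCC was found in 15.3% of the 72 windows and CTTTTC in 6.94%, against 1.95% and 1.43% of all windows. On the other strand they were found in 0 and in 1.39% of the 72 windows, against 1.74% and 1.28% of all. Both hexamers are made of C and T only, so these matches overlap with the runs. The starts shown are those of genes that differed by at least 1.5 times between the libraries and of 3 of the most abundant genes. Each gives the 30 bases around the start, 5′ to 3′, with the longest run of C and T in capitals. For Rpl35a, Rpl34 and Rpl10a the listed start with the longest run was taken. Rps3a, Rpl30 and Rplp1 had no entry.
Rpl35a (chr16:33056467-33056496, plus strand): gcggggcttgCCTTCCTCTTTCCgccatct
Rpl34 (chr3:130730323-130730352, minus strand): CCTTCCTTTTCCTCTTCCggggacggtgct
Rpl26 (chr11:68901551-68901580, plus strand): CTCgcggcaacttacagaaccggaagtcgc
Rpl12 (chr2:32961697-32961726, plus strand): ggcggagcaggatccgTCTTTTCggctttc
Rps25 (chr9:44407699-44407728, plus strand): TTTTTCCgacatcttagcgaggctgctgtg
Rps2 (chr17:24720048-24720077, plus strand): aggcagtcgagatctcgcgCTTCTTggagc
Rps28 (chr17:33824548-33824577, minus strand): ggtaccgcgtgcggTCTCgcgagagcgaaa
Rpl10a (chr17:28328456-28328485, plus strand): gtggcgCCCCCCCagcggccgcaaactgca
Rpl4 (chr9:64173372-64173401, plus strand): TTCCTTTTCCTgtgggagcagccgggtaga
Rplp0 (chr5:115559452-115559481, plus strand): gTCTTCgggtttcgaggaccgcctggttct
In the bases shown, the runs of Rpl35a, Rpl34 and Rpl26 were 13, 18 and 3 bases long. Those of Rpl12, Rps25, Rps2 and Rps28 were 7, 7, 6 and 4. The runs of Rpl34 and Rps25 went on beyond the bases shown, to 20 and 12 within 20 bases of the start.

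Most ribosomal protein genes had similar RPM in both libraries. A gene was counted as higher or lower when its ratio of Igfbp7-/- to WT, computed on RPM plus 0.1, was at least 1.5 in either direction. Of the 77 genes, 5 were higher in Igfbp7-/- and 6 were lower, where 21.4% and 23% of all 14026 genes above the same minimum were higher and lower. The counts were 14 higher and 3 lower when reads were scaled to those on listed genes, against 30.3% and 18.4% of all genes, and 3 higher and 11 lower when the 20 genes of highest RPM were left out of the scaling, against 16.7% and 27.4%. With the deposited RPM, the other 66 (85.7%) lay within 1.5 times, against 55.5% of all genes, and 40 (51.9%) lay within 1.2 times, against 27.9%. The median log2 ratio of the 77 was 0.00087, with quartiles at -0.24 and 0.30, beside a median of 0.035 and quartiles at -0.52 and 0.51 for all genes. The ratio was above 1 for 39 genes and below 1 for 38. At a minimum of 10 RPM, 59 ribosomal protein genes were left, of which 4 were higher and 5 lower, against 20.7% and 20.4% of all 8201 genes at that level. A 95% Clopper-Pearson interval of the ratio, computed on read pairs and covering counting error only, lay above 1 for 22 genes and below 1 for 23. No such count was made over all genes. The interval narrows as reads increase, and the median WT level was 39.4 RPM for the 77 genes against 11.8 for all genes above the minimum. These interval counts therefore cannot be read as a result about the set.

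**Figure D3:**
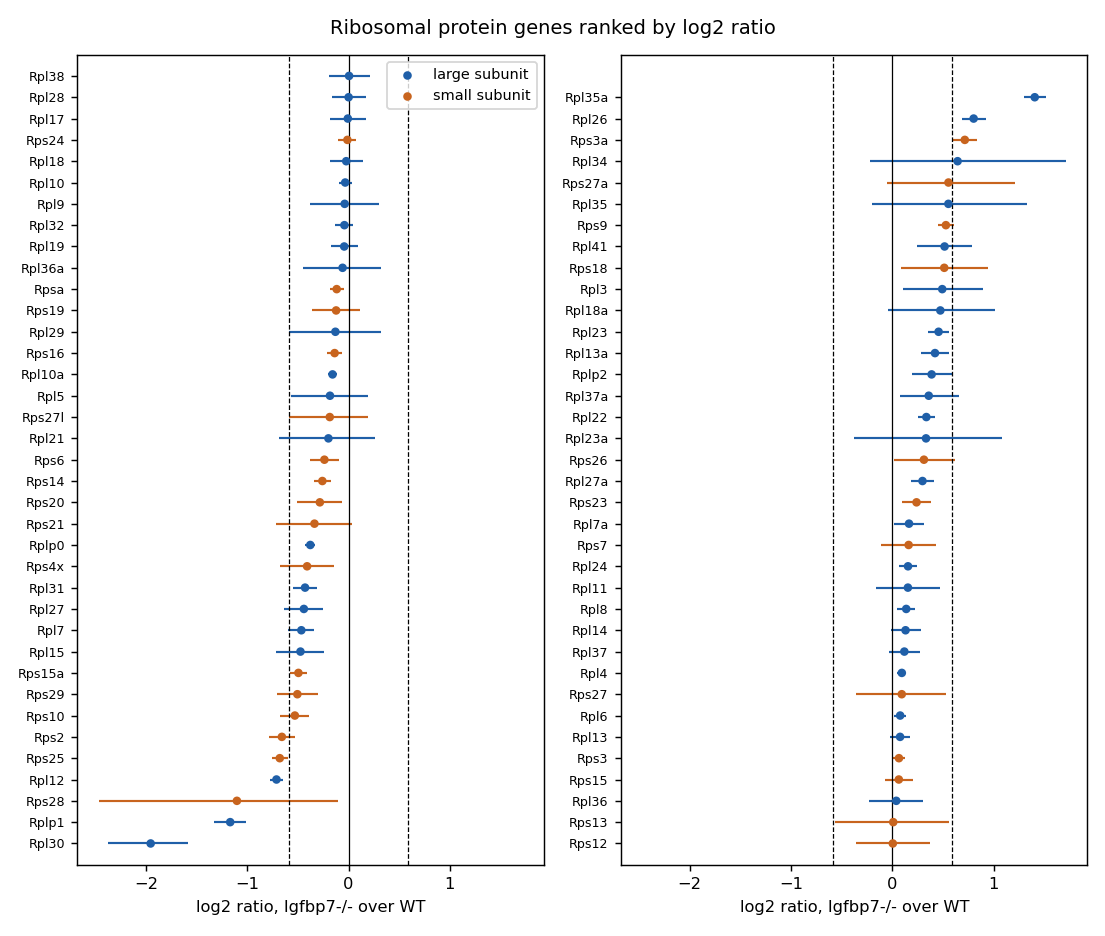
Log2 ratio of Igfbp7-/- to WT for 73 of the ribosomal protein genes above the minimum, ranked, where the points are the ratios on RPM plus 0.1, the lines are 95% Clopper-Pearson intervals on read pairs (counting error only), and dashes mark 1.5 times. The right panel ends with Rpl35a at 1.41, and the left panel begins with Rpl30 at -1.95.

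Rpl35a, a large subunit protein, had 2026 reads (59.0 RPM) in WT and 5481 (156.5 RPM) in Igfbp7-/-, which was 2.65 times higher with a log2 ratio of 1.41 (1.30 to 1.51). The difference was far larger than counting error. Rpl26, at the rim of the exit tunnel, had 52.1 RPM in WT and 91.0 in Igfbp7-/-, for a log2 ratio of 0.80 (0.68 to 0.92). Summed with its pseudogene row, which held 75.3% of the reads in WT, it had a log2 ratio of 0.37 and was within 1.5 times. Rps3a, on the platform side of the small subunit, had 56.0 and 92.0 RPM, a log2 ratio of 0.72 (0.60 to 0.83). Rpl34 passed the threshold on 32 and 53 reads, or 0.93 and 1.51 RPM, and its interval of -0.22 to 1.72 included no difference. Summed with its pseudogene row it had a log2 ratio of -0.21. Just inside the threshold stood Rps27a, which is made fused to ubiquitin, at a log2 ratio of 0.55 and Rpl35 at 0.55, both with intervals that included 0, and Rps9 at 0.53 (0.45 to 0.61).

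Rpl30, a large subunit protein near the interface of the subunits, had the lowest ratio of the genes counted as lower. WT held 522 reads of it (15.2 RPM), and Igfbp7-/- held 135 (3.86 RPM). This was 3.87 times lower, a log2 ratio of -1.95 (-2.38 to -1.58). Rows titled as copies of Rpl30 held 84.7% of the summed reads in WT and 94.0% in Igfbp7-/-, and the log2 ratio of the sum was -0.64. Rplp1, an acidic protein of the P stalk, which recruits the translational GTPases, had 2114 reads (61.6 RPM) in WT and 958 (27.4 RPM) in Igfbp7-/-. Its log2 ratio was -1.17 (-1.33 to -1.01). Rps28, beside the mRNA exit, had 46 and 20 reads, and its interval was wide, from -2.47 to -0.10 around a log2 ratio of -1.10.

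The other 3 genes counted as lower were abundant and differed by less. Rpl12 was 1.64 times lower, with 273.7 RPM in WT and 167.1 in Igfbp7-/-. Rps25, which several viral internal ribosome entry sites depend on, had 203.4 and 127.0 RPM and was 1.601 times lower. Rps2, at the mRNA entry channel, had 74.7 and 47.3 RPM and was 1.58 times lower, but its log2 ratio was -0.25 in the sum with its like row. All 3 stood within 1.5 times when counts were scaled to the reads on listed genes. Just inside the threshold on this side were Rps10 at a log2 ratio of -0.53 (-0.68 to -0.39), Rps29 at -0.50 (-0.71 to -0.31) and Rps15a at -0.49 (-0.58 to -0.41).

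The genes of the P stalk did not all differ in the same direction between the libraries. Its base, Rplp0, had 409.5 RPM in WT and 315.2 in Igfbp7-/- (log2 ratio -0.38). Rplp1 and Rpl12 were lower as described. Rplp2, which pairs with Rplp1 in the stalk, had 22.6 RPM in WT and 29.6 in Igfbp7-/-, with a log2 ratio of 0.39 (0.20 to 0.58). Rplp1 and Rplp2 thus differed in opposite directions, with intervals that did not overlap but cover counting error only. Rpsa, a small subunit protein also known as the laminin receptor, had 208.1 and 191.9 RPM, a log2 ratio of -0.12.

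The median log2 ratio was 0.08 for the 45 large subunit genes above the minimum and -0.12 for the 32 small subunit genes. In the large subunit 26 genes had a ratio above 1 and 19 below, and in the small subunit 13 had one above and 19 below. Past 1.5 times were 3 higher and 3 lower genes of the large subunit and 2 higher and 3 lower of the small. Of all genes above the same minimum, 21.4% were higher and 23% lower. Families shared with bacteria had 1 higher and 2 lower of 33, and families not shared with bacteria had 4 higher and 4 lower of 44. Of 6 genes at the exit tunnel rim above the minimum, 1 was higher and 0 were lower, with a median of 0.16. The proteins of the 5S particle, Rpl5 and Rpl11, which can bind Mdm2 when ribosome assembly is disturbed, had log2 ratios of -0.18 and 0.15. Rps6, the target of the S6 kinases, had 49.9 RPM in WT and 42.3 in Igfbp7-/-, a log2 ratio of -0.24.

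Several genes were almost level. Rpl28 had 1160 and 1184 reads, or 33.8 RPM in each library. Rpl38 had 23.2 RPM in WT and 23.3 in Igfbp7-/-, and Rps24 had 120.6 and 119.6. Rpl4 and Rpl6, both with over 200 RPM, had log2 ratios of 0.09 and 0.08. For such counts the interval was narrow, from 0.05 to 0.14 for Rpl4.

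The set held 4 paralogs that carry a symbol ending in l. Some of them are known for narrow expression, as with Rpl10l in testis and Rpl3l in muscle. Rpl10l had 0 reads in both libraries, which allows up to 3 reads, 0.0874 RPM in WT and 0.0857 in Igfbp7-/-. Its partner Rpl10 had 8402 and 8377 reads. Rpl3l had 1 read in each library, while Rpl3 had 185 reads in WT and 267 in Igfbp7-/-, a log2 ratio of 0.49 (0.11 to 0.90). Rps27l, a p53 target, had 239 and 214 reads, against 167 and 182 for Rps27. All these counts are of own rows only. Every 75-base stretch of the Rps27 coding sequence occurred elsewhere in the genome, as did 93.4% for Rpl3 and 13.75% for Rps27l.

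Rpl39l had 34 reads in WT and 19 in Igfbp7-/-, more than the 4 and 5 reads listed for Rpl39, although Rpl39 is the form of the protein in most tissues. The starts of the coding sequences (NCBIM37, the assembly also named mm9) show how far a read can tell such partners apart, with the bases that differ within a pair in capitals.
Rpl39 (chrX:34622515-34625397, minus strand): atgTcttctcacaagacTttcCgAatcaag
Rpl39l (chr16:10170319-10175004, plus strand): atgGcttctcacaagacCttcAgGatcaag
Rpl10 (chrX:71516151-71518474, plus strand): atgggCcgCcgCccCgcCcgGtgttaccgg
Rpl10l (chr12:67384368-67385388, minus strand): atgggTcgTcgTccGgcTcgCtgttaccgg
Rpl3 (chr15:79908211-79913836, minus strand): atgtcTcacAggaaAttctcAgcTccCAgg
Rpl3l (chr17:24864774-24873094, plus strand): atgtcCcacCggaaGttctcTgcCccTCgg
Rps27 (chr3:90016593-90017573, minus strand): atgccTctCgcAaAGgatctCCtTcaTccC
Rps27l (chr9:66793893-66797323, plus strand): atgccCctGgcTaGAgatctGTtAcaCccT
The coordinates are those of the genes. In these 30 bases the partners differed at 4, 6, 7 and 10 positions, in the order shown. The first 35 coding bases of Rpl39, Rpl10, Rpl3 and Rps27 were found unchanged at 4, 4, 7 and 2 other places in the genome, and those of each of the 4 paralogs at 0.

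The files also listed 57 rows titled as a like gene or pseudogene of 31 of the 81 proteins, of which 51 had reads. These rows held 56244 reads in WT and 50274 in Igfbp7-/-, which was 21.7% and 19.97% of the reads of the genes and rows together. They include Rpl7l1 (1394 and 1299 reads), taken as a like row of Rpl7, although it is also counted as a gene outside the symbol pattern. For 13 genes the like rows held more reads than the gene itself in both libraries, among them Rpl5, Rpl11, Rpl21, Rpl26, Rpl29, Rpl30, Rpl34, Rpl35, Rpl36, Rpl39, Rps12 and Rps19. Rpl39 stood out, with 4 and 5 reads on its own row and 15338 and 11893 on 5 like rows, of which LOC100503815 on chromosome 15 alone held 13894 and 10485. Rpl5 had 252 and 226 reads against 7414 and 7359 on its like row. The low levels of such genes were therefore levels of their own rows only.

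Summing each gene with its like rows left 3 genes higher and 5 lower of 78, with a median log2 ratio of 6.7e-05. Among all 14027 genes in that comparison 21.4% were higher and 23.0% lower, with a median of 0.035. Rpl30 moved from -1.95 to -0.64, since its like rows held 2894 reads in WT and 2098 in Igfbp7-/-. Rpl26 moved from 0.80 to 0.37, Rps2 from -0.66 to -0.25, and Rpl34 from 0.64 to -0.21. In the sum Rpl35a had 1.40 and Rplp1 -1.09. Their like rows held only 0.39% and 3.07% of the summed WT reads, so the sum could hardly move either ratio. Rpl39, past the minimum only in this sum, had 446.9 RPM in WT and 339.8 in Igfbp7-/-, a log2 ratio of -0.40. The part of shared reads in the ratios of single genes was not tested.

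**Figure D4:**
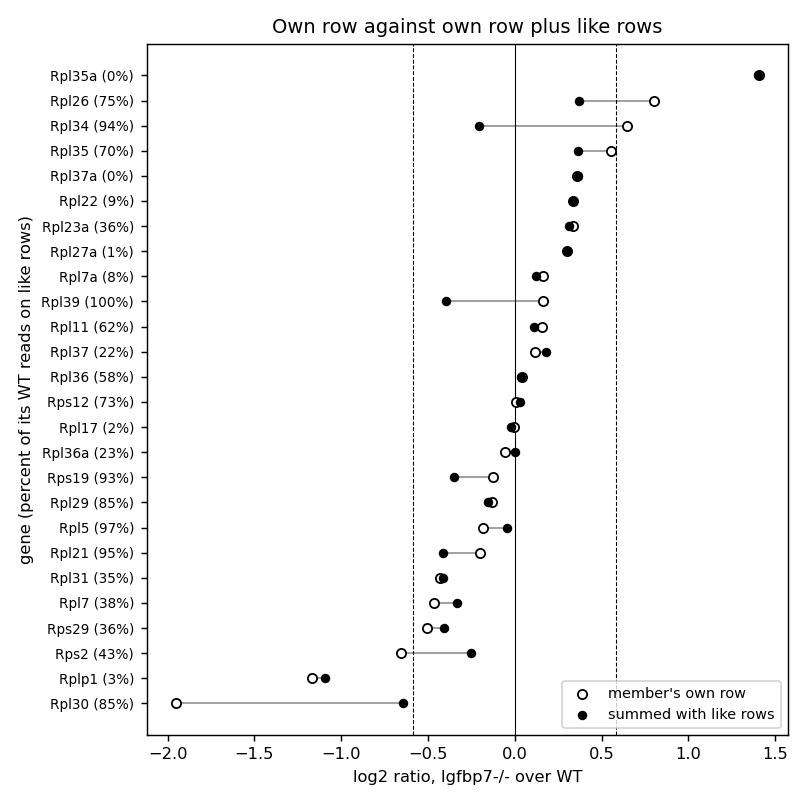
Log2 ratio of Igfbp7-/- to WT for 26 genes with reads on like rows, from the gene's own row (open points) and from the sum with its like rows (filled points), with the percent of WT reads on like rows beside each name and dashes at 1.5 times. Rpl30, Rpl26, Rpl34, Rpl39 and Rps2 moved most, while Rpl35a and Rplp1, with few reads on like rows, stayed near their own values.

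The genome itself showed how common such copies are. Of the 80 genes with an annotated coding transcript in NCBIM37, 73 had at least 1 other place with at least 95% identity over at least 80% of the coding sequence, with a median of 6 and a maximum of 56 places, the latter for Rpl21. In the median gene 95.2% of all 35-base stretches and 81.8% of all 75-base stretches of the coding sequence, the lengths of the sequenced reads, occurred elsewhere without a change. For 25 genes every 75-base stretch did, and their WT RPKM ranged from 2.59 to 588.3. Rpl10a, the gene with the highest RPKM, was one of them. Of these 25, 2 were past 1.5 times, Rpl12 and Rps28. Of all genes above the minimum, 44.5% were past 1.5 times in either direction. Of 7 genes in which less than 10% of the stretches did, 4 were above the minimum, among them Rps3 (127.7 RPKM in WT), Rpl8 (129.8) and Rpl22 (56.7), and 0 of the 4 passed 1.5 times. Across 79 genes the Spearman correlation between WT RPKM and the number of copies was -0.22, a description only, since all genes share the same libraries.

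Introns of ribosomal protein genes host small nucleolar RNAs (snoRNAs), which guide the modification of ribosomal RNA. In NCBIM37, 58 snoRNA annotations lay inside 30 of the genes, and 23 of them, in 19 genes, were listed by the same name. Snora64, inside Rps2, had 108 reads in WT and 29 in Igfbp7-/-, and Snord4a, inside Rpl23a, had 73 and 27. Snora3, inside Rpl27a, had 30 and 65 reads, and Snord34, inside Rpl13a, had 213 and 170. Of the 23, Snora64, Snord4a and Snora3 had the largest ratios in either direction and Snord34 had the most reads. Others were level, such as Snora65 inside Rpl12 with 39 reads in each library and Snord72 inside Rpl37 with 50. All of these counts were low. The hosts Rps2, Rpl23a and Rpl27a had log2 ratios of -0.66, 0.33 and 0.30.

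Ribosomal proteins and partners outside the symbol pattern had 0 of 6 past 1.5 times in either direction, against 44.5% of all genes. Fau, whose product holds a ribosomal protein fused to a ubiquitin-like part, had 52.2 RPM in WT and 59.5 in Igfbp7-/-. Gnb2l1, also named Rack1, a scaffold on the small subunit, had 519.9 and 427.7 RPM. The other genes with TOP mRNAs were similar, with 0 higher and 1 lower of 19 and a median of 0.026. Eef2, the factor that moves the ribosome along the mRNA, had 1169 and 1473 RPM, and Eef1b2 had 109.3 and 142.1. The 1 lower gene was Vim, the mesenchymal intermediate filament protein, with 594.6 RPM in WT and 325.4 in Igfbp7-/-.

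Of 62 ribosome biogenesis genes 15 (24.2%) were higher and 1 (1.61%) lower, where 21.4% of all genes were higher and 23% lower, and the median log2 ratio was 0.31. Utp20, of the small subunit processome, had 32.8 RPM in WT and 97.3 in Igfbp7-/-, Rrp1b had 14.5 and 32.8, and the helicase Ddx51 had 7.60 and 17.6. Of 14 genes for RNA polymerase I and its factors 7 were higher and 1 lower, with a median of 0.48. Ubtf, which activates ribosomal DNA, had 16.1 RPM in WT and 37.0 in Igfbp7-/-, Cd3eap, a polymerase I subunit, had 9.88 and 27.2, and Ttf1, which terminates its transcripts, had 10.3 and 18.8.

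Among 28 genes of mTORC1 and of TOP mRNA control 6 were higher, 21.4% as among all genes, and 1 was lower, with a median of 0.16. Myc, a transcription factor that drives ribosome synthesis, had 107.6 RPM in WT and 335.6 in Igfbp7-/-. Tsc1, an inhibitor of mTORC1, had 32.7 and 71.0 RPM, and Pdpk1, the kinase that activates Akt and S6 kinase, had 73.1 and 125.9. Of 13 other genes that host snoRNAs 6 were higher and 0 lower, among them Eif4a2 with 221.3 and 371.7 RPM, Rabggtb with 34.2 and 56.8, and Taf1d with 33.2 and 53.9.

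Translation factors stayed nearer the ribosomal protein genes. Of 38 initiation factors 4 were higher and 2 lower, against 21.4% and 23% of all genes. Eif5, which triggers start codon recognition, had 343.5 RPM in WT and 670.7 in Igfbp7-/-, while Eif2b2 had 42.6 and 20.6 and Eif4e3 had 22.9 and 12.02. Of 12 elongation and termination factors 1 was higher, the kinase Eef2k (20.6 and 31.4 RPM), and 1 lower, Eif5a (135.5 and 88.0 RPM).

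Mitochondrial ribosomal protein genes, which serve the separate ribosome of that organelle, had 6 higher and 10 lower of 76, with a median of -0.07. Among all genes 21.4% were higher and 23% lower. Mrpl9 had 21.8 RPM in WT and 44.5 in Igfbp7-/-, Mrpl30 had 13.0 and 6.80, and Mrpl15 had 10.4 and 6.17. Other large complexes of short housekeeping mRNAs served for comparison. Proteasome subunits had 1 higher and 6 lower of 37, including the interferon-inducible Psmb8 (37.4 and 10.2 RPM) and Psmb9 (11.9 and 2.03 RPM) and the lid subunit Psmd11 (66.3 and 38.1 RPM). Respiratory chain and ATP synthase subunits had 0 higher and 28 lower of 71 and a median of -0.50, with Cox7a2 at 33.5 and 6.71 RPM, Sdhb at 24.5 and 8.65, and Ndufs8 at 15.03 and 5.45. Differences between these lists were not tested.

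**Figure D5:**
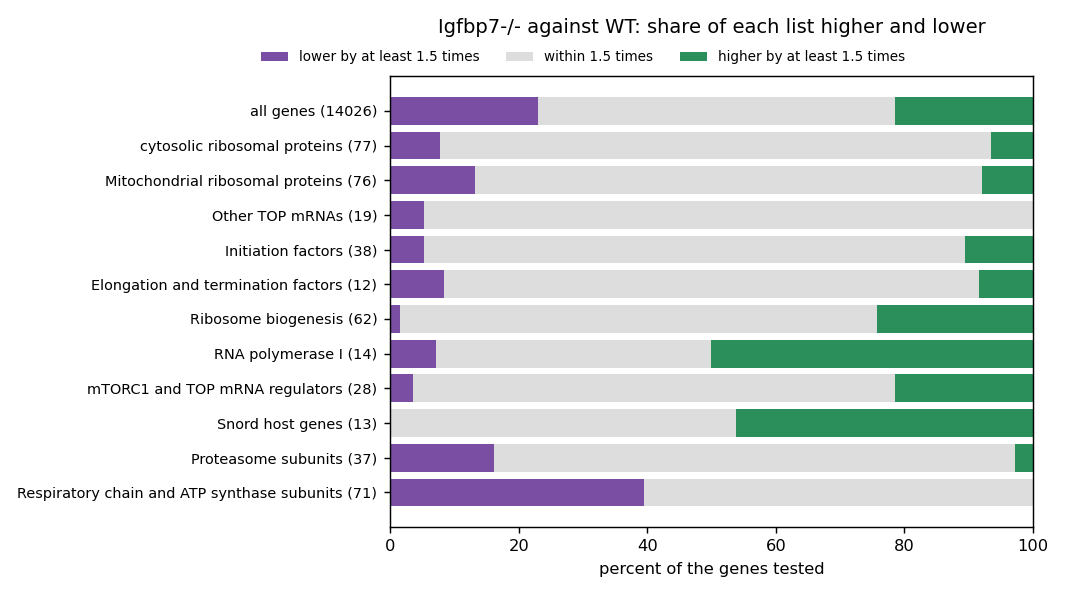
Percent of the genes above the minimum in each list that were lower (left), within 1.5 times (middle) or higher (right) in Igfbp7-/-, with the number of genes in brackets. The cytosolic ribosomal proteins had 7.79% lower and 6.49% higher, RNA polymerase I had 50% higher, and the respiratory chain and ATP synthase subunits had 39.4% lower.

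Ribosomal protein genes are short, with a median length of 708 bp (328 to 5158) against 2803 bp for all genes above the minimum. Among all genes the ratio differed with length. In the shortest of 4 length classes of equal size, which held 70 of the ribosomal protein genes, the median log2 ratio of all 3480 genes was -0.14, with 15.6% higher and 27.0% lower, and in the longest class it was 0.17. Across 76 ribosomal protein genes the Spearman correlation between length and log2 ratio was 0.0059, given as a description. The part of length in the values of the lists was not tested.

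The libraries held 34327854 (WT) and 35016847 (Igfbp7-/-) mapped reads, of which 82.3% and 72.3% were on listed genes. Igfbp7 had 5224 reads in WT and 37 in Igfbp7-/-. Genes of milk-secreting cells were present in both, but their summed RPM was 141318 in WT and 56408 in Igfbp7-/-. Of these 14 genes 8 were lower and 2, Krt8 and Krt18, were higher. Among all genes above the minimum 23% were lower and 21.4% higher. Summed RPM of basal markers was 3819 and 1213 (9 of 10 lower), of leukocyte markers 244.2 and 89.5 (11 of 12 lower), of endothelial markers 1418 and 474.0 (7 of 8 lower), of fibroblast markers 9250 and 4731 (4 of 8 lower, 1 higher), and of adipocyte markers 628.6 and 234.6 (4 of 6 lower, 1 higher). Some sums rested largely on single genes, as with Fabp4 (543.5 RPM in WT) among adipocyte markers and Col3a1 (4670 RPM in WT) among fibroblast markers. Genes that respond to cell dissociation summed to 5226 and 7517 RPM (4 of 10 higher), and erythroid genes to 1066 and 1244 RPM, with 1 of their 6 markers at 0 reads in WT. Leukocyte and endothelial markers were thus measurable in both libraries after depletion. The part of cell composition in the ratios of ribosomal protein genes was not tested.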

How the data were processed

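Per the labels and the methods of the study, poly(A) RNA was sequenced as paired reads of 35 and 75 bp on a SOLiD instrument and mapped with a Bowtie pipeline in GeneSifter, with at most 3 mismatches. The submitters' processing notes name Bowtie 0.12.3, SAMtools 0.1.15 and mm9, whereas the methods name a human build. How reads that map to several places were counted, and whether strand was used, was not given in the sources used here. Deposited by the authors were the count of reads on each gene, an RPM (count divided by the mapped reads of the library) and an RPKM (RPM per kilobase of a gene length). No column of other samples was present.

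Genes were matched by symbol, and 50 rows without one were left out. Ratios were taken as log2((RPM + 0.1)/(RPM + 0.1)) for genes that reached 1 RPM in either library, and genes were counted at 1.5 times. Intervals were 95% Clopper-Pearson on read pairs, because even counts were in excess, and Wilson on single reads for shares, and 3 reads were the floor. At these depths 3 reads were 0.0874 RPM in WT and 0.0857 RPM in Igfbp7-/-. Copies were sought by exact match of all transcript stretches and with blastn 2.17.0 in NCBIM37 with GENCODE transcripts, and start windows came from RefSeq. Alternatives were other pseudocounts, minima, thresholds and scalings (TMM by edgeR 4.0.16), RPKM, the set without paralogs ending in l and, chosen after seeing the data, sums with like rows. Python 3.11.15, numpy 2.4.6, pandas 2.3.3 and scipy 1.17.1 were used, and the scripts were tested on simulated data. Members and lists were chosen with earlier results of these data known. Named genes were the P stalk proteins and Rpsa, paralogs ending in l with their partners, the 6 highest in WT RPKM, the 6 highest and 6 lowest ratios at 10 RPM or more, all genes counted or below the minimum, other members by their place in the ribosome, and 3 genes per list with the largest ratios at 10 RPM or more. Some single genes are counted in the totals but not reported here by name or in the plots of single genes.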

Additional observations from a re-analysis of the deposited data

How the results depend on the processing

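The counts of 5 higher and 6 lower genes depended on the scaling. Without the 20 genes of highest RPM they were 3 higher and 11 lower, with a median log2 ratio of -0.14 beside -0.10 for all genes, and the share of reads was lower by 0.0886 percentage points in Igfbp7-/- (-0.0886). With counts scaled to the reads on listed genes they were 14 higher and 3 lower, with a median of 0.19 beside 0.22 for all genes, and the share of reads turned to 0.0775 percentage points higher in Igfbp7-/- instead of the main difference of -0.0163. At a ratio of 2 there were 2 higher and 3 lower, against 9.64% and 13.8% of all genes. In sums with like rows there were 3 higher and 5 lower, against 21.4% and 23.0% of all genes. The share difference in the sums was -0.0365 percentage points, and Rpl34 turned to -0.21. TMM scaling gave 5 and 6, against 20.8% and 23.7% of all genes. Pseudocounts, RPKM and the minima gave 4 or 5 higher and 5 to 7 lower. Under these settings 18.1% to 23.5% of all genes were higher and 19.9% to 26.2% lower. Of the genes counted, Rpl35a, Rpl30 and Rplp1 stayed past 1.5 times under all 8 alternatives applied to single genes. For Rpl35a and Rplp1 the sums could hardly show a change, as like rows held 0.39% and 3.07% of their summed WT reads. Rpl34 and Rps28 fell inside with a pseudocount of 1 RPM, Rpl34 and Rps3a without the 20 genes, Rpl12, Rps2 and Rps25 with the listed-gene scaling, and Rpl26, Rpl34 and Rps2 in the sums. Leaving out a replicate could not be done with 1 library per genotype. No paired analysis was possible because each genotype had 1 library. Genes such as Rpl34, Rps28, Rpl39 and Rpl3l had too few reads for a ratio to be read at this depth.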

Other observations

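Ribosomal RNA itself was listed in both libraries, although the methods of the study name a filter against it. The 18S row, Rn18s, had 500594 reads in WT and 440938 in Igfbp7-/-, or 14583 and 12592 RPM. The 28S row, LOC236598, had 512637 and 660626 reads, or 14934 and 18866 RPM. The 18S row was thus lower and the 28S row higher in Igfbp7-/-, with log2 ratios of -0.21 and 0.34, and each alone held more reads than the 81 ribosomal protein genes together.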
